A study of Homo sapiens with 3 samples.

Results

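The genes of pericellular proteolysis described here are 10 plasminogen activators, matrix metalloproteinases (MMPs) and tissue inhibitors of metalloproteinases (TIMPs), namely PLAU, PLAUR, PLAT, MMP1, MMP7, MMP14, MMP15, TIMP1, TIMP2 and TIMP3. Their probes were found by gene name in the annotation of the arrays, and they make up 10 of the 43299 gene names and 11 of the 58171 probes used. Messenger RNA was measured in HCT116, a human colorectal cancer cell line, on 3 arrays, of which 1 is called SMARCA4-KD1, 1 SMARCA4-KD2 and 1 NC. The KD arrays hold RNA of cells transfected by lipofection with small interfering RNA against SMARCA4, the ATPase subunit of the SWI/SNF chromatin remodeler, and NC is the scrambled negative control. The sample titles name SMARCA4, whereas the treatment field names PRMT1 and supplies the KD number, and which of the synthesized small interfering RNAs was used for each KD array is not stated there. All 3 arrays come from the same cell line, and the time after transfection is not given in the sources used here.

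Urokinase (PLAU) and tissue plasminogen activator (PLAT) are serine proteases that cut plasminogen into plasmin, and the urokinase receptor (PLAUR) holds urokinase at the cell surface. Plasmin degrades fibrin and can activate secreted MMP precursors, and the MMPs in turn cleave collagens, other matrix proteins and membrane proteins. TIMPs bind the active site of MMPs, and TIMP2 also takes part in the activation of pro-MMP2 by MMP14 at the membrane. In colorectal carcinoma, these proteases are known for their part in invasion, and MMP7 is made by the tumor epithelium itself.

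Upstream sequences of PLAU, its receptor PLAUR and MMP7 are shown because PLAU was lower on both KD arrays while PLAUR and MMP7 were not. Another reason is AP-1, a factor known to act on genes of this system, of which some subunits, but not all, were higher. The sequences are the 250 bases before an annotated RefSeq transcript start in GRCh38.p14, written 5′ to 3′ on the strand of the gene. Capitals mark the AP-1 motif TGANTCA, the GC box GGGCGG or its complement CCGCCC, and TATAAA, searched on both strands. The PLAU window lies at chr10:73910882-73911131 on the plus strand, the PLAUR window at chr19:43670170-43670419 on the minus strand and the MMP7 window at chr11:102530748-102530997 on the minus strand.
PLAU: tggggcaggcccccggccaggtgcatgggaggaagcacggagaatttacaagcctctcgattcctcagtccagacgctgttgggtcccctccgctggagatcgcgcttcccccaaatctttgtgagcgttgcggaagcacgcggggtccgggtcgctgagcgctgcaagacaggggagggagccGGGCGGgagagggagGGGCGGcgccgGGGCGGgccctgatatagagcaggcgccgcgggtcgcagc
PLAUR: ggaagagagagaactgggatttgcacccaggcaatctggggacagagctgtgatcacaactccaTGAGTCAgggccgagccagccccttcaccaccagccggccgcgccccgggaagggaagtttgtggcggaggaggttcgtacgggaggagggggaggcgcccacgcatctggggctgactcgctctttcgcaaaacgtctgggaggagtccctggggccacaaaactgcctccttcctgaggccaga
MMP7: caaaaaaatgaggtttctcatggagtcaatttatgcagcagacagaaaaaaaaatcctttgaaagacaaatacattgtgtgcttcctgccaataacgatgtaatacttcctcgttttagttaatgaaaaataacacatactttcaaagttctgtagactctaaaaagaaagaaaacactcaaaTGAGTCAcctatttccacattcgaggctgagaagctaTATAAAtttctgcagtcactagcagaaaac

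The window shown for PLAU held 3 GC boxes, no AP-1 motif and no TATAAA, with 24 CpG dinucleotides and a GC content of 68.8%. The window of another annotated PLAU start, at chr10:73910360-73910609, held none of these motifs, 4 CpG and a GC content of 46.8%. In MMP7 an AP-1 motif began at position -67 from the start and a TATAAA began at position -30, in a window with a GC content of 33.6%. In PLAUR an AP-1 motif began at position -186. Among 35116 upstream windows of the same length, 6.57% held the AP-1 motif, 42.6% a GC box and 3763 windows TATAAA, and the median window had 11 CpG and a GC content of 58%. AP-1 motifs numbered 0 in the windows of MMP14, MMP15, TIMP1 and TIMP3. MMP15 and TIMP1 were, like PLAUR and MMP7, not lower on either KD array. GC boxes in these 4 windows ranged from 1 in MMP14 and 2 in TIMP1 to 5 in MMP15 and 5 in TIMP3. Upstream windows of PLAT, MMP1 and TIMP2 were not used here. A motif match describes the letters of the window. Sequence farther from these starts was not searched, so whether PLAU has an AP-1 motif outside its windows was not tested.

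The deposited values are processed signals of single spots, the fluorescence intensity after background subtraction, which were put on the log2 scale and set against the 75th percentile of their own array. A log2 fold change is the difference of such a value from that of NC. The methods of the study name NC samples in the plural, and 1 NC array was analysed here. As no condition had a replicate array here, single differences from NC cannot be held against a spread between cultures, and precision is limited by there being 3 arrays. The error given with a log2 fold change combines the errors that the extraction software assigns to both signals and covers the measurement of the spots only. Both KD arrays shared slide and scan date, and NC differed from them in slide, scan date or both. Slide or scan and knockdown therefore cannot be told apart, and both comparisons share the NC array. SMARCA4, probed at chr19:11172673-11172732 of hg19, had a signal of 14026 in NC against 3960.2 and 4129 in the knockdowns, which left 26.6% and 28.8% of the NC level, whereas PRMT1 had log2 fold changes of 0.27 and 0.37. Of 9 epithelial markers 8 were compared (VIL1 was not well above background, and KRT20 was at least 2.15- and 2.81-fold higher), with medians of -0.02 (SMARCA4-KD1) and 0.03 (SMARCA4-KD2) on the log2 scale, and 8 of 9 fibroblast markers were not well above background on any array. Of the leukocyte and endothelial markers, 4 and 2 were compared, all at signals between 24.1 and 86.3, with respective medians of -0.02 and 0.18 for the former knockdown and -0.21 and 0.89 for the latter. The endothelial value rests on CDH5 and on VWF, whose probes disagree (0.13 and 1.08 on the brighter, -0.91 and -1.50 on the other), and with probes averaged it was -0.08 and 0.28. The part of these markers in the results below was not tested.

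Both plasminogen activators and TIMP2 were at least 1.5-fold lower on both KD arrays than in NC, and 0 members were at least 1.5-fold higher on either. Given for SMARCA4-KD1 and then for SMARCA4-KD2, PLAT was 2.40- and 2.53-fold lower, PLAU 2.33- and 1.77-fold lower, and TIMP2 1.78- and 1.72-fold lower. PLAUR, MMP7, MMP15 and TIMP1 had small positive differences on both arrays (PLAUR was at -0.01 in SMARCA4-KD1 under quantile normalization), and MMP14 and TIMP3 small negative ones, the signs of MMP14 and TIMP3 being positive in their mean over both knockdowns when the arrays were scaled on the spike-in controls. MMP1 was not well above background on any array and was not compared. Among the 22619 genes compared, 8.02% were at least 1.5-fold lower on both KD arrays and 6.36% at least 1.5-fold higher on both, against 3 and 0 of the 9 members compared (14.4% of all genes and 3 members in either direction). In SMARCA4-KD1 12.2% of all genes were lower and 11.2% higher by this threshold, in SMARCA4-KD2 9.74% and 10.1%, and the same 3 members were past the threshold on each. Without regard to size, 5 of the 9 members were lower on both arrays and 4 were higher on both, where 39.3% of all genes were lower and 41.2% higher on both. The median of the members' mean log2 fold changes was -0.16, and that of all genes was 0.03.

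**Figure D1:**
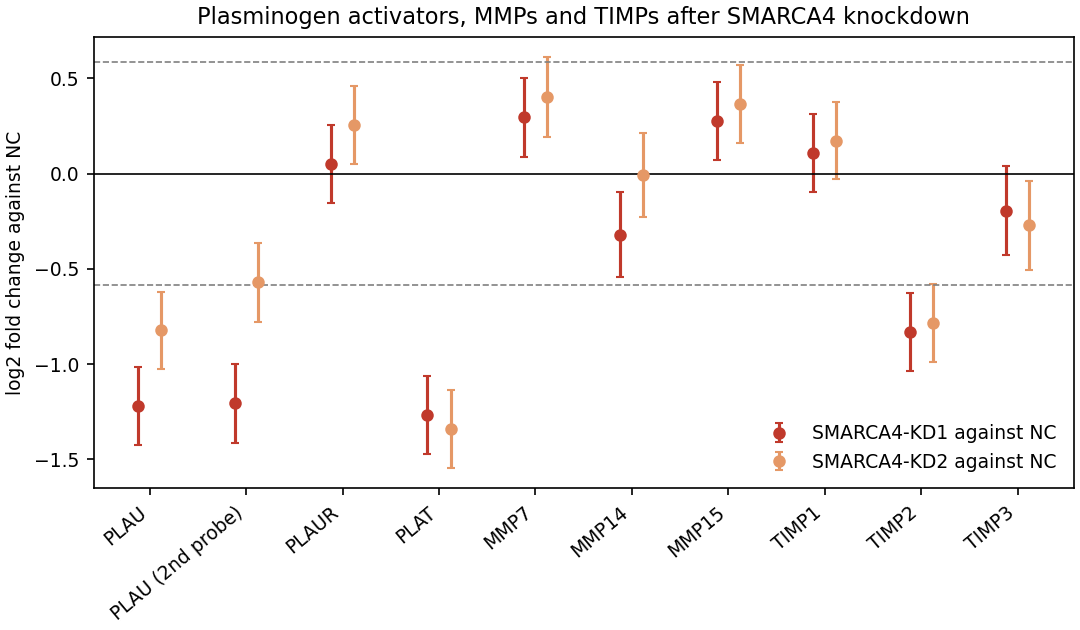
Log2 fold change against NC of the 10 member probes that passed the filter on dim probes, with SMARCA4-KD1 and SMARCA4-KD2 as points side by side. Bars are the errors from the extraction software, from 0.20 to 0.24 on the log2 scale, and dashed lines mark 1.5-fold. PLAT, TIMP2 and the brighter PLAU probe lie below the lower line on both arrays, and the points of PLAUR, MMP7, MMP14, MMP15, TIMP1 and TIMP3 lie between the lines.

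In the group of activators and their receptor, PLAU and PLAT were lower and PLAUR was not. The brighter PLAU probe (chr10:75677050-75677109, plus strand, hg19) read 11617.5 in NC, 5289.9 in SMARCA4-KD1 and 6716 in SMARCA4-KD2. NC was above both KD signals, the lower of which was that of SMARCA4-KD1. The log2 fold changes were -1.22 ± 0.20 and -0.82 ± 0.20 (error from the extraction software, 1 array each). The other PLAU probe, at chr10:75674614-75674673, was dimmer, with signals of 327, 150.4 and 225 in the same order. It gave log2 fold changes of -1.21 ± 0.21 and -0.57 ± 0.21, that is 2.31- and 1.49-fold lower, so that in SMARCA4-KD2 it was just short of 1.5-fold. On both PLAU probes SMARCA4-KD1 was thus the lower of the KD arrays, by 0.40 and 0.63 on the log2 scale. Over the 19496 genes well above background on all arrays, the absolute difference between the KD arrays had a median of 0.12 and a 95th percentile of 0.48, between the values of the 2 PLAU probes.

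PLAT, the activator best known for dissolving clots, was printed in 10 spots per array, which shows the measurement error within an array. Its spots lay between 436 and 515 in SMARCA4-KD1 with a median of 490.0, between 425 and 463 in SMARCA4-KD2 with a median of 450.2, and between 1047 and 1188 in NC with a median of 1104. Every spot on either KD array was below every spot in NC, and the spots of the KD arrays overlapped each other. The SD of the log2 signal over the 10 spots was 0.07, 0.04 and 0.06, which is error within an array and not between cultures. The log2 fold changes were -1.27 ± 0.20 and -1.34 ± 0.20. By the smaller of its differences PLAT ranked 209 among the 22619 genes ordered from the lowest, while PLAU ranked 835 and TIMP2 953. The genes nearest to PLAT in their log2 fold changes, by Euclidean distance over both comparisons among 19496 genes, were GAS2L3 (distance 0.02), ENST00000621996 (0.04) and CCDC68 (0.05).

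The urokinase receptor was measured at chr19:44169498-44169557 (minus strand, hg19). PLAUR signals were 1745 in NC, 1918 in SMARCA4-KD1 and 2132 in SMARCA4-KD2. NC had the lowest of these, with log2 fold changes of 0.05 ± 0.20 and 0.26 ± 0.20, the former within the error of the spots and -0.01 under quantile normalization. The ratio of PLAU to PLAUR within an array, in which the scaling of the array cancels, was 2.41- and 2.11-fold lower than in NC, a description of unequal differences and not of either gene alone.

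**Figure D2:**
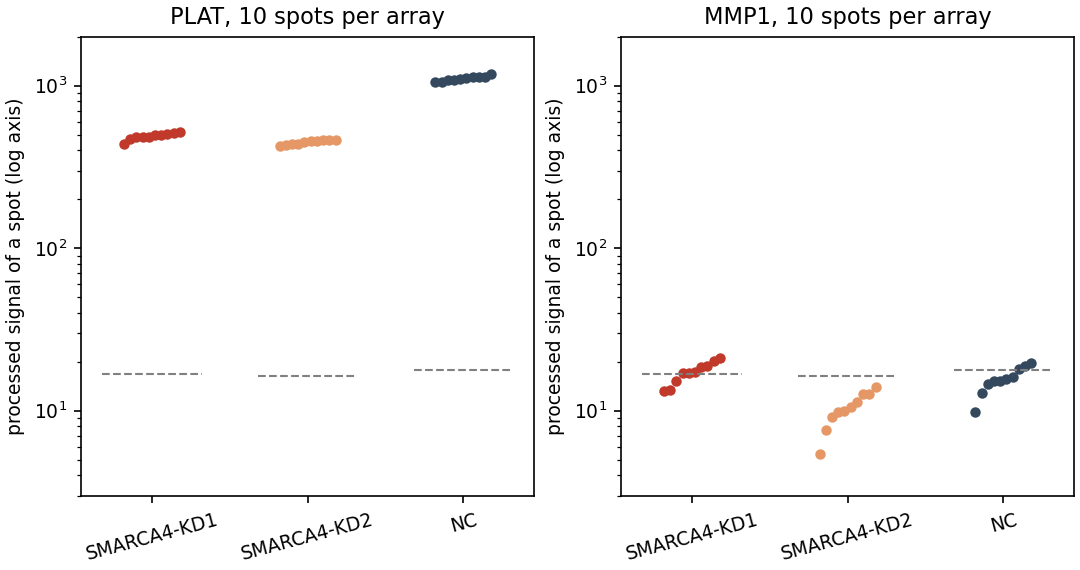
Processed signal of each of the 10 spots of the PLAT probe and of the MMP1 probe on each array, on a log axis. Dashed lines mark the lowest signal well above background on that array, between 16.4 and 17.7. The PLAT spots on both KD arrays lie below those of NC, whereas the MMP1 spots lie around or below the dashed lines.

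Of the MMPs among the members, 3 of 4 were compared and 0 were at least 1.5-fold from NC. MMP1, the interstitial collagenase, was also printed in 10 spots (chr11:102660697-102660756, hg19). Its spots ranged from 13.2 to 21.0 in SMARCA4-KD1, from 5.38 to 14.02 in SMARCA4-KD2 and from 9.86 to 19.7 in NC. Of the 10 spots, 4, 0 and 1 were well above background, and no fold change is given. MMP7, matrilysin, which is made by epithelial cells (chr11:102394029-102394088, minus strand), read 144 in NC, 187 in SMARCA4-KD1 and 194 in SMARCA4-KD2. NC was the lowest, by 0.30 ± 0.21 and 0.40 ± 0.21 on the log2 scale, the largest positive differences among the members. The genes nearest to MMP7 in their pair of log2 fold changes were ENST00000539977, GPR152 and ZNF16, at distances of 0.01 each.

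Both remaining members of this group encode MMPs anchored in the membrane. MMP15 (chr16:58080484-58080543) had signals of 1138 in NC and of 1460.1 and 1502 in the knockdowns, with NC lowest and log2 fold changes of 0.27 ± 0.20 and 0.37 ± 0.20. MMP14 (chr14:23315791-23315850), which can activate pro-MMP2, had signals of 87.5 in NC, 74.3 in SMARCA4-KD1 and 89.0 in SMARCA4-KD2. SMARCA4-KD1 was below the other 2 arrays, which were nearly equal, with log2 fold changes of -0.32 ± 0.22 and -0.01 ± 0.22, the latter 0.02 under quantile normalization. MMP7 and MMP15 had nearly equal log2 fold changes, and when the arrays were scaled on the spike-in controls MMP7 was at least 1.5-fold higher on both KD arrays (0.60 and 0.72) and MMP15 in SMARCA4-KD2 (0.58 and 0.69).

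Of the TIMPs, TIMP2 alone was at least 1.5-fold lower on both KD arrays. TIMP2 (chr17:76849063-76849122, minus strand) had signals of 29694 in NC, 17678.5 in SMARCA4-KD1 and 17628 in SMARCA4-KD2. These KD values were within 0.05 of each other on the log2 scale and both below NC, with log2 fold changes of -0.83 ± 0.20 and -0.78 ± 0.20. TIMP1 (chrX:47444666-47444725), a secreted inhibitor of most MMPs, had signals of 5821, 6651 and 6716 in the same order, with NC lowest and log2 fold changes of 0.11 ± 0.20 and 0.17 ± 0.20, both within the error. TIMP3 (chr22:33258540-33258599), which stays bound to the matrix and also inhibits several ADAM proteases, was dim, with signals of 70.5, 65.4 and 59.7. Its log2 fold changes were -0.19 ± 0.23 and -0.27 ± 0.24, and 0.11 and 0.05 with spike-in scaling. Within the arrays the ratio of TIMP2 to TIMP1 was 1.92- and 1.94-fold lower than in NC, that of TIMP2 to MMP14 1.43- and 1.71-fold lower, and that of MMP15 to TIMP2 2.15- and 2.22-fold higher.

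**Figure D3:**
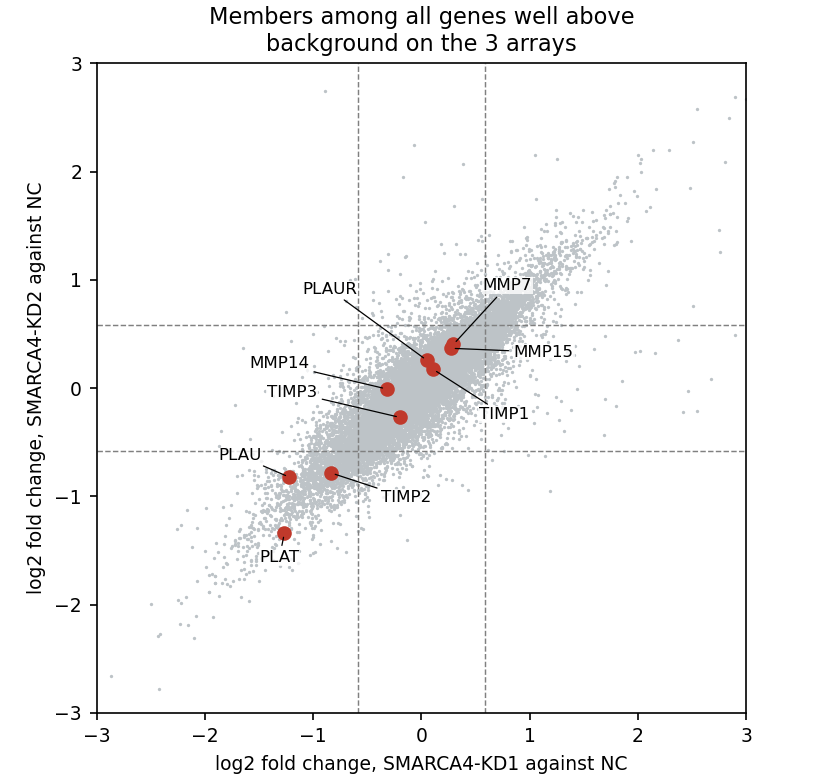
Log2 fold change against NC in SMARCA4-KD2 (y axis) and in SMARCA4-KD1 (x axis) for the 19496 genes well above background on the 3 arrays (grey, those within the axis range) and the 9 members compared (red). Dashed lines mark 1.5-fold, and both axes share the NC array, so points spread along the diagonal also where NC alone deviates. PLAT, PLAU and TIMP2 lie in the lower left corner, and the other members lie among the genes near the centre.

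In limma, fitted over all 22619 genes with both KD arrays as samples of knockdown against NC and 1 residual degree of freedom, 0 genes and 0 members passed a Benjamini-Hochberg adjusted p of 0.05, so 0% were called, and the lowest adjusted p of any gene was 0.0742. At an unadjusted p of 0.05 the fit called 7101 genes (31.4%), and the methods' t-test called 0 genes after the same adjustment. The lowest adjusted p values of the members in limma were 0.074 for PLAT (SE 0.10), 0.074 for TIMP2 (SE 0.07) and 0.092 for PLAU (SE 0.20). Those of the other members in the same limma fit were 0.14 for MMP15, 0.22 for MMP7, 0.32 for TIMP1, 0.43 for TIMP3, 0.49 for PLAUR and 0.67 for MMP14. The limma call depended on the setting, because PLAT, PLAU and TIMP2 passed with the filter on all arrays, with quantile normalization and with normexp, when 5174, 2432 and 3643 of all genes passed too. Quantile normalization and normexp kept the 22619 genes of the main fit. The filter on all arrays left fewer to test, so its count has another base. No share of all genes was worked out for these counts, so the calls of the members are not read as a result about the members. The fit assumes that the NC array varies like the KD arrays, and with bulk RNA fewer cells of a kind and less RNA per cell cannot be told apart.

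When the arrays were scaled on the 8 spike-in controls well above background, whose mean log2 differences from NC were -0.30 and -0.32, the median gene moved to 0.30 and 0.34. PLAT was then at -0.96 and -1.02, PLAU at -0.91 and -0.50, and TIMP2 at -0.53 and -0.47, so all 3 were lower than NC on both arrays and PLAT alone was at least 1.5-fold lower on both. Relative to the median gene their differences stayed as under the percentile, since the scaling adds the same amount to every gene.

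**Figure D4:**
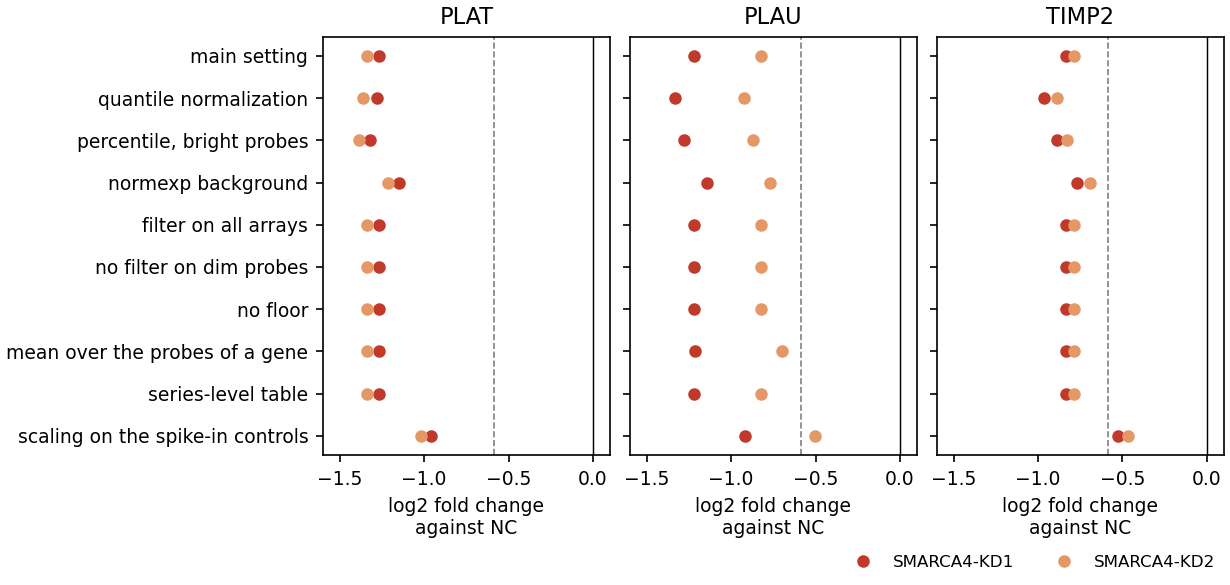
Log2 fold change against NC of PLAT, PLAU and TIMP2 under the main setting and 9 alternatives, each a row of the y axis, with SMARCA4-KD1 and SMARCA4-KD2 as points. The solid line marks 0 and the dashed line 1.5-fold lower. All points lie below 0, and those right of the dashed line are PLAU in SMARCA4-KD2 and TIMP2 on both arrays under scaling on the spike-in controls.

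The other genes of this system were described with 7 lists of 77 genes in all, of which 55 were compared. On both KD arrays 2 of these were at least 1.5-fold lower (LRP1 and SERPINA5) and 5 at least 1.5-fold higher (MMP23B, ADAM15, FOS, FOSB and JUN), beside 8.02% and 6.36% of all genes. With normexp background correction 0 of them were 1.5-fold lower on both, and with each gene's probes averaged 1 was. With spike-in scaling 1 was, SERPINA5, while 13 were higher. Under that scaling the median of all genes was also higher, at 0.30 and 0.34. The median of their mean log2 fold changes was 0.00045, against 0.03 for all genes. As with the members, the threshold was applied without a test.

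Of 7 genes listed with the inhibitors of plasminogen activators and plasmin, 4 were compared. Their median log2 fold changes were -0.34 and -0.46 in the 2 knockdowns (-0.03 and -0.14 with spike-in scaling). Whether each of them, SERPINB5 included, inhibits a plasminogen activator or plasmin was not tested. SERPINA5, the protein C inhibitor, which also inhibits urokinase, had dim signals of 56.5 in NC, 21.6 in SMARCA4-KD1 and 27.3 in SMARCA4-KD2. NC was the highest, with log2 fold changes of -1.47 and -1.08. SERPINE2 had log2 fold changes of -0.15 and 0.09, SERPINB5 of -0.30 and -0.36, and SERPINB2, another inhibitor of urokinase, was not well above background.

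Of 13 genes listed for plasminogen, its receptors and other genes related to them, LRP1 and VTN among the latter, 10 were compared. Their medians were -0.21 and -0.23. Under the percentile scaling 7 of these were below NC on both arrays and 2 above, beside 39.3% and 41.2% of all genes. With spike-in scaling 3 were below and 6 above, with medians of 0.10 and 0.09. Plasminogen itself (PLG) was not well above background. S100A10, which with annexin A2 binds PLAT and plasminogen at the cell surface, had log2 fold changes of -0.41 and -0.65. LRP1, an endocytic receptor that clears proteases from the cell surface, was dim, with signals of 48.2 in NC and 28.9 and 28.5 in the knockdowns, and log2 fold changes of -0.82 and -0.79 on its brighter probe, but 0.11 and 0.28 on its other probe, so its probes disagree.

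Among 19 other MMPs, 9 were compared and 10 were not well above background, MMP2 and MMP3 among them. MMP23B was at least 1.92- and 1.83-fold higher on the KD arrays, with signals of 36.0 and 33.0 against a NC signal of 15.5 that was not well above background. MMP11, stromelysin 3, had log2 fold changes of 0.55 and 0.78, past 1.5-fold in SMARCA4-KD2 alone. MMP9, a gelatinase, had signals of 344 in NC and 269 and 283 in the knockdowns, and log2 fold changes of -0.44 and -0.31, and MMP17 had -0.37 and -0.36, of which only MMP9 in SMARCA4-KD2 changed sign with spike-in scaling, to 0.01. MMP19 had log2 fold changes of 0.25 and 0.15 and MMP28 of -0.20 and 0.02. The probes of MMP25 disagreed in size, with 0.18 and 0.26 on the brighter and 0.96 and 0.98 on the other.

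Other inhibitors and inducers of MMPs and the proteases that activate MMPs or pro-urokinase held 0 genes at least 1.5-fold from NC on both arrays, among 3 of 5 and 10 of 13 compared. The share over all genes, in either direction, was 14.4%. RECK, a membrane-bound inhibitor of MMPs, had log2 fold changes of 0.12 and -0.04, BSG, an inducer of MMPs, of 0.49 and 0.10, and TIMP4 was not well above background. Of 8 other membrane sheddases 7 were compared, and ADAM15 was 1.58- and 1.59-fold higher on its brighter probe, with 0.60 and 0.43 on the log2 scale on the other.

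All 12 genes of AP-1 and ETS factors were compared. In the order of NC, SMARCA4-KD1 and SMARCA4-KD2, FOS had signals of 578, 1277 and 1296, FOSB of 98.9, 343 and 195.5, and JUN of 748, 2774 and 2291. On both KD arrays these AP-1 subunits were above NC, 2.08- and 2.19-fold for FOS, 3.27- and 1.93-fold for FOSB, and 3.50- and 2.997-fold for JUN. The remaining genes of this list were between -0.42 and 0.60 on the log2 scale. Of the other AP-1 subunits, JUNB (0.60 and 0.34) and JUND (0.46 and 0.33) were above NC on both KD arrays. FOSL2 (-0.31 and -0.42) was below NC on both, and FOSL1 (0.11 and -0.22) differed in sign. Thus 3 of 12 were at least 1.5-fold higher on both arrays and 0 lower, beside 6.36% and 8.02% of all genes. With spike-in scaling FOS, FOSB and JUN were between 1.27 and 2.11. PLAUR and MMP7, whose windows above hold the AP-1 motif, had the log2 fold changes given above, all within 1.5-fold under the percentile scaling. With spike-in scaling MMP7 was at 0.60 and 0.72. Whether AP-1 acts on PLAU, PLAUR or MMP7 in these cells was not tested.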

How the data were processed

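The SurePrint G3 Human Gene Expression v3 arrays (Agilent) carried 62976 spots in 1 colour (Cy3). The authors extracted and deposited the intensity of each spot with Agilent Feature Extraction 10.7.1.1, with background subtraction and detrending and no normalization between arrays, along with 0 or 1 flags in other columns, which were used as given. The deposited series-level table holds the same intensity values, and 1 of 57871 probes with 1 spot differed from the scanner files by over 0.1%, 0 of them members. The number of unmapped columns was 0.

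Control and outlier-flagged spots were dropped, and for the 300 probes printed in 10 spots the mean of log2 signals was taken. Each array's 75th percentile over the 58171 of 58201 probes with a usable spot (223 to 237) was subtracted from log2 of the deposited signal. Per array, 26608 to 27526 probes were well above background. A probe was well above background where over 50% of its spots were, and dimmer values were set to the higher of their own value and the lowest signal well above background, so folds against them are bounds. Probes were kept if any of the 3 arrays had them well above background (29333), and the brightest stood for a gene (22619 genes). Names and hg19 positions of probes come from the files, exon and UTR positions were not assigned, and upstream sequences and their GRCh38.p14 positions are from RefSeq.

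The threshold was that of the study, 1.5-fold. Its p of 0.01 from GeneSpring cannot be had for a single knockdown with 1 array per condition, so both knockdowns were pooled as samples of knockdown against NC, for the methods' t-test and for limma 3.58.1 (R 4.3.3) with an intensity trend and p-values adjusted by Benjamini-Hochberg. Steps were tested on simulated data. The members, the lists of other genes and the cell type markers were chosen with earlier results of these data known. Named genes were SMARCA4, all members, list genes past 1.5-fold on both arrays, SERPINE2, SERPINB2, SERPINB5, TIMP4, RECK, BSG, MMPs well above background on all arrays, and the 3 nearest patterns to PLAT and MMP7. PLG, S100A10, VTN, VIL1, COL1A1, JUNB, JUND, FOSL1, FOSL2, MMP2 and MMP3 were named after their values were seen. Of the rule's genes, 1 is not reported here. Alternatives were quantile normalization, the percentile over probes well above background, normexp with an offset of 50, no floor, no filter or one on all arrays, the series-level table, the mean over probes, 2-fold, leaving out a KD array, limma without trend or adjustment, the methods' t-test, and, chosen after seeing the data, scaling on the spike-in controls. Tables used Python 3.11.15, numpy 2.4.6 and pandas 2.3.3, and figures matplotlib 3.10.9.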

Additional observations from a re-analysis of the deposited data

How the results depend on the processing

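The directions of PLAT, PLAU, TIMP2, PLAUR, MMP7, MMP15 and TIMP1 in their mean log2 fold change were the same under all 11 alternatives run, with ranges from -1.35 to -0.99 for PLAT, -1.22 to -0.71 for PLAU, -0.93 to -0.50 for TIMP2 and 0.24 to 0.66 for MMP7. Every compared member was well above background on all arrays, so the filters and the floor could not change these values. Nor could the series-level table, which holds the same intensities, and the mean over probes could change PLAU alone. PLAU was at -0.82 without SMARCA4-KD1 and -1.22 without SMARCA4-KD2. Scaling on the spike-in controls, chosen after seeing the data, turned the mean of MMP14 to 0.15 and of TIMP3 to 0.08. It left 1 member at least 1.5-fold lower in SMARCA4-KD2 and 1 lower on both arrays, and put 1 member higher in SMARCA4-KD1, 2 higher in SMARCA4-KD2 and 1 higher on both. Among the other listed genes it gave 1 lower and 13 higher on both arrays. This follows from its construction, as it adds the same amount to every gene. At 2-fold, 1 member was lower in SMARCA4-KD2 and 1 on both arrays, and 1 listed gene was lower and 2 were higher on both. The shares of all genes past the threshold were not worked out at 2-fold or with spike-in scaling. These counts are therefore not a result about the members or the listed genes. With normexp 0 and with the mean over probes 1 of the listed genes were 1.5-fold lower on both, and the cause was not tested.

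The number of genes called by limma was 0 with and without the intensity trend, 5174 with the filter on all arrays, 2432 with quantile normalization, 3643 with normexp and 7101 at an unadjusted p of 0.05, and the members called were 3, 3, 3 and 4 in the last 4. The methods' t-test, with both knockdowns pooled against NC, called 434 genes and 0 members at its p of 0.01 and 1.5-fold. With the filter on all arrays fewer genes were tested than under the other settings. The cause of the differences in these counts was not tested, and a fit with 1 residual degree of freedom limits what any of them can show. No paired analysis was possible because each condition has 1 array. The signal over background limits MMP1, and MMP14, TIMP3, SERPINA5 and LRP1 are close to it.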
